A study of Mus musculus with 8 samples.

Results

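Genes of mechanically gated channels and their partners were followed in mouse vagal ganglia, where vagal sensory neurons have their cell bodies. The members were fixed by name as 10 of the 55335 genes of the deposited count table: Piezo1 and Piezo2, Tmem63a, Tmem63b and Tmem63c, Tmc3, Tmc6 and Tmc7, Stoml3, and Tmem120a. All 10 were found by their GENCODE M21 symbol, and 9 had enough counts to be tested. Wild-type (WT) mice received either HDM (taken here to stand for house dust mite, an allergen that is breathed in) or saline, and ganglia were taken 1.5 h after challenge number 4. Each group had 4 libraries. For each of them 6 to 8 ganglia from 3 to 4 animals were combined, so replicates are pools and p-values measure the spread between pools. A batch label from 1 to 4 equals the replicate number, with 1 library of either group in every batch. The libraries held 23952130 to 26670634 counts in HDM and 26868337 to 31281281 in saline.

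PIEZO proteins are large trimeric channels that open when the membrane is stretched and let cations in. PIEZO2 is the main channel of touch and position sense in somatic sensory neurons, and in vagal neurons it is known for sensing airway stretch, while PIEZO1 is best known from blood vessels and red blood cells. TMEM63 proteins are stretch-activated channels of the OSCA family, the TMC family contains the transduction channels of inner ear hair cells, STOML3 is a stomatin-like membrane protein that sensitises PIEZO channels in touch neurons, and TMEM120A was described as a channel of mechanical pain and later as a coenzyme A binding protein that inhibits PIEZO2.

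The start regions of 4 members are shown because these genes mark the ends of what was measured: Tmc3 had the highest level per length, Piezo1 the lowest of the detected members, Stoml3 was near 0, and Tmc7 was the member whose treatment groups did not overlap. Each window runs from 250 bases before to 50 bases after a RefSeq start (build GRCm38.p6) and is printed 5′ to 3′ on the gene's strand. Capitals mark CpG dinucleotides in the first 3 and the CRE motif, the palindrome bound by CREB family factors, in Tmc7.
Tmc3, chr7:83584681-83584980, plus strand: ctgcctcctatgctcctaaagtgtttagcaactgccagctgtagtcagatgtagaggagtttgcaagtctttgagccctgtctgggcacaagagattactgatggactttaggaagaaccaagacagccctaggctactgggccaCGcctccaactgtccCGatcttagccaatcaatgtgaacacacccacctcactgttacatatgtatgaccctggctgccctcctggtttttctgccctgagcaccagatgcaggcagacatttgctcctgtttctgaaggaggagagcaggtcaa
Stoml3, chr3:53488457-53488756, plus strand: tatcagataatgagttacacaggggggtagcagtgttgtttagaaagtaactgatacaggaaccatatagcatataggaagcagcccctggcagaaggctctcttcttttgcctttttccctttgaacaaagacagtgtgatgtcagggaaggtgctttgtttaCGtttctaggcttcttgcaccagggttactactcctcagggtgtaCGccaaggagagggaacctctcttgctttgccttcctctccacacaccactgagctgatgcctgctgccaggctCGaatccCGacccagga
Piezo1, chr8:122551280-122551579, minus strand: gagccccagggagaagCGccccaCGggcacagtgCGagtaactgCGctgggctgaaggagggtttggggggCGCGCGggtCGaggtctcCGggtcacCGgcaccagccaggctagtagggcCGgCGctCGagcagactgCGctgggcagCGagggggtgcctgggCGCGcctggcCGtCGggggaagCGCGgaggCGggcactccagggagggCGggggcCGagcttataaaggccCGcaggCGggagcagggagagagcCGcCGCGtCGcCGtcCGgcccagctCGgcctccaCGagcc
Tmc7, chr7:118584637-118584936, minus strand: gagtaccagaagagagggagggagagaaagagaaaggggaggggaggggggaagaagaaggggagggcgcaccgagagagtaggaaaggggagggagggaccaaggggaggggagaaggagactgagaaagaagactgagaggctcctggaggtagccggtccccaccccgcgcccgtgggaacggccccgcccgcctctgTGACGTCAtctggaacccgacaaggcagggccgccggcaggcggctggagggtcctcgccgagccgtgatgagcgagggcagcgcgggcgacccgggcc

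The Tmc3 window held 2 CpG and the Stoml3 window 4, against a median of 7 over 32851 RefSeq start windows of the same length, while the Piezo1 window held 34, more than 92.3% of all windows. The order of CpG content was thus not the order of expression, since the most and the least expressed members both had few. Tmem63a, Tmem63b and Tmem120a had 33, 34 and 32 CpG, Tmc7 had 22 and Tmc6 had 14. Tmem63c has 2 annotated starts, with 5 and 9 CpG. The CRE (TGACGTCA, both strands) was found in the Tmc7 window, beginning 49 bases before the start, in 1 of the 9 members with a window and in 1.79% of all windows. A TATA element (TATAAA, both strands) was found in Piezo1, beginning 24 bases before the start, and in 1 of the Tmem63c windows, and in 13.6% of all windows. The AP-1 motif (TGANTCA, both strands) was found in 0 of the 9 members and 7.81% of all windows. These matches describe the letters only.

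Per length of annotated exon, Tmc3 was the highest of the 10 genes. Levels between genes are given in TPM, which are counts divided by gene length and scaled to the same sum in each library. Tmc3 had 132 ± 11.6 TPM in HDM and 125 ± 5.71 TPM in saline (SD, n = 4 each), more than 92.7% of the 17618 genes tested. Tmem63c followed with 103 ± 7.06 TPM and Tmem63b with 95.4 ± 4.75 TPM over the 8 libraries, then Piezo2 with 65.0 ± 7.27 TPM. Tmem120a, Tmc7 and Tmc6 lay together at 32.6 ± 3.11, 27.8 ± 1.34 and 27.0 ± 2.24 TPM, Tmem63a had 15.3 ± 0.855 TPM and Piezo1 11.5 ± 1.06 TPM. Stoml3 was at 0 to 0.118 TPM.

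**Figure D1:**
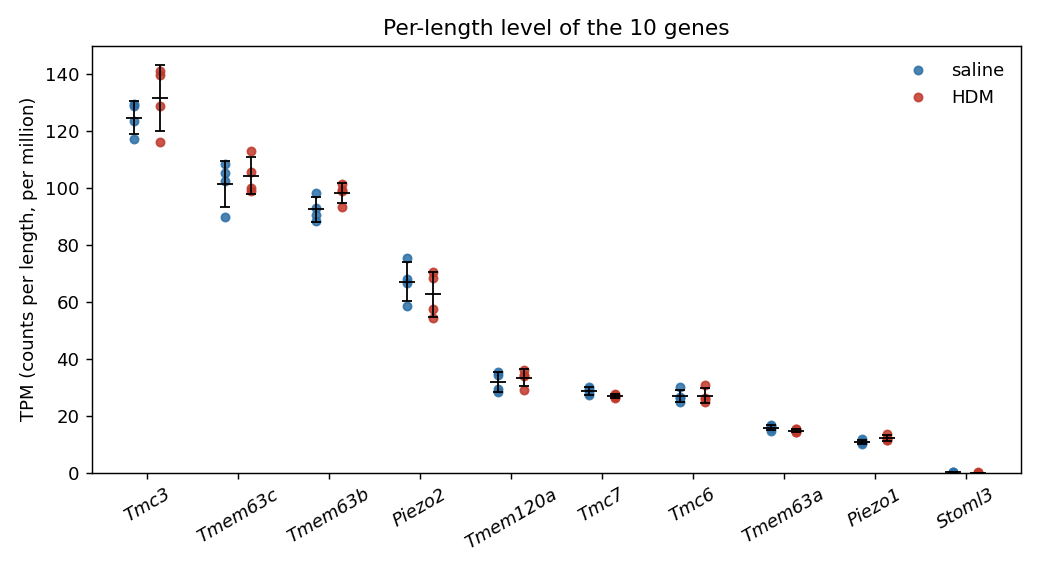
Per-length level (TPM, linear axis from 0) of the 10 genes in order of their mean, with 1 point per library, 4 saline and 4 HDM libraries per gene, and bars for the mean and SD of each group. Tmc3 stands highest, Tmem63c and Tmem63b overlap, Piezo2 stands alone between 54.5 and 75.5 TPM, and Stoml3 lies at the axis.

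Most steps in this order were larger than the spread between libraries, and 3 were not. The ranges over the 8 libraries did not overlap between Tmc3 and Tmem63c, Tmem63b and Piezo2, Piezo2 and Tmem120a, Tmc6 and Tmem63a, Tmem63a and Piezo1, or Piezo1 and Stoml3. They overlapped between Tmem63c and Tmem63b, between Tmem120a and Tmc7, and between Tmc7 and Tmc6, so the order within these pairs is not separated. With the longest annotated transcript as the length, chosen after seeing the data, Tmem63b passed Tmem63c in 8 of 8 libraries (116 against 92.3 TPM on average), and Tmc6 came ahead of Tmem120a and Tmc7.

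Within families, 1 gene or a pair carried most of the signal. Piezo2 made up 84.8% ± 2.52 of the summed TPM of the PIEZO genes (SD, n = 8), with a range of 80.9% to 88.1%. Tmem63c and Tmem63b took 48.1% ± 1.44 and 44.7% ± 1.24 of the TMEM63 sum and Tmem63a 7.20% ± 0.664. Among Tmc3, Tmc6 and Tmc7, Tmc3 held 69.98% ± 2.26. The other TMC genes, listed for comparison, were lower: Tmc4 had 6.31 TPM, Tmc5 3.73, Tmc8 1.03, Tmc2 0.228 and Tmc1 0.189, so Tmc1 and Tmc2, the hair cell channels, were near the detection limit with 5 to 14 and 1 to 10 counts per library.

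The comparison of HDM with saline asked whether these sensors differ in abundance shortly after allergen exposure, and 0 of the 9 tested members passed (edgeR quasi-likelihood test, adjusted p under 0.05 over 17618 genes). The background was 1.38% of all tested genes, 1.23% higher and 0.159% lower in HDM, so a count of 0 among 9 genes is near it. At an unadjusted p under 0.05 the count was 1, Tmc7, where the background was 18.1% of genes. DESeq2 and limma-voom also called 0 members, beside 6.75% and 1.21% of the genes they gave an adjusted p. Each had Tmc7 alone at an unadjusted p under 0.05, beside 21.6% and 18% of those genes. The log2 fold changes of the 9 members lay between −0.12 and 0.15, with a median of 0.025 beside −0.0055 over all tested genes. The edgeR 95% intervals reached at most −0.29 on the lower side and 0.31 on the upper side, both for PIEZO genes. Larger differences lie outside the intervals of every tested member in that fit, which had group as its only term. With an offset for GC content the interval of Tmem63a reached −0.32, and −0.33 with the batch as a block as well. A p that misses the threshold does not show that levels were equal.

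**Figure D2:**
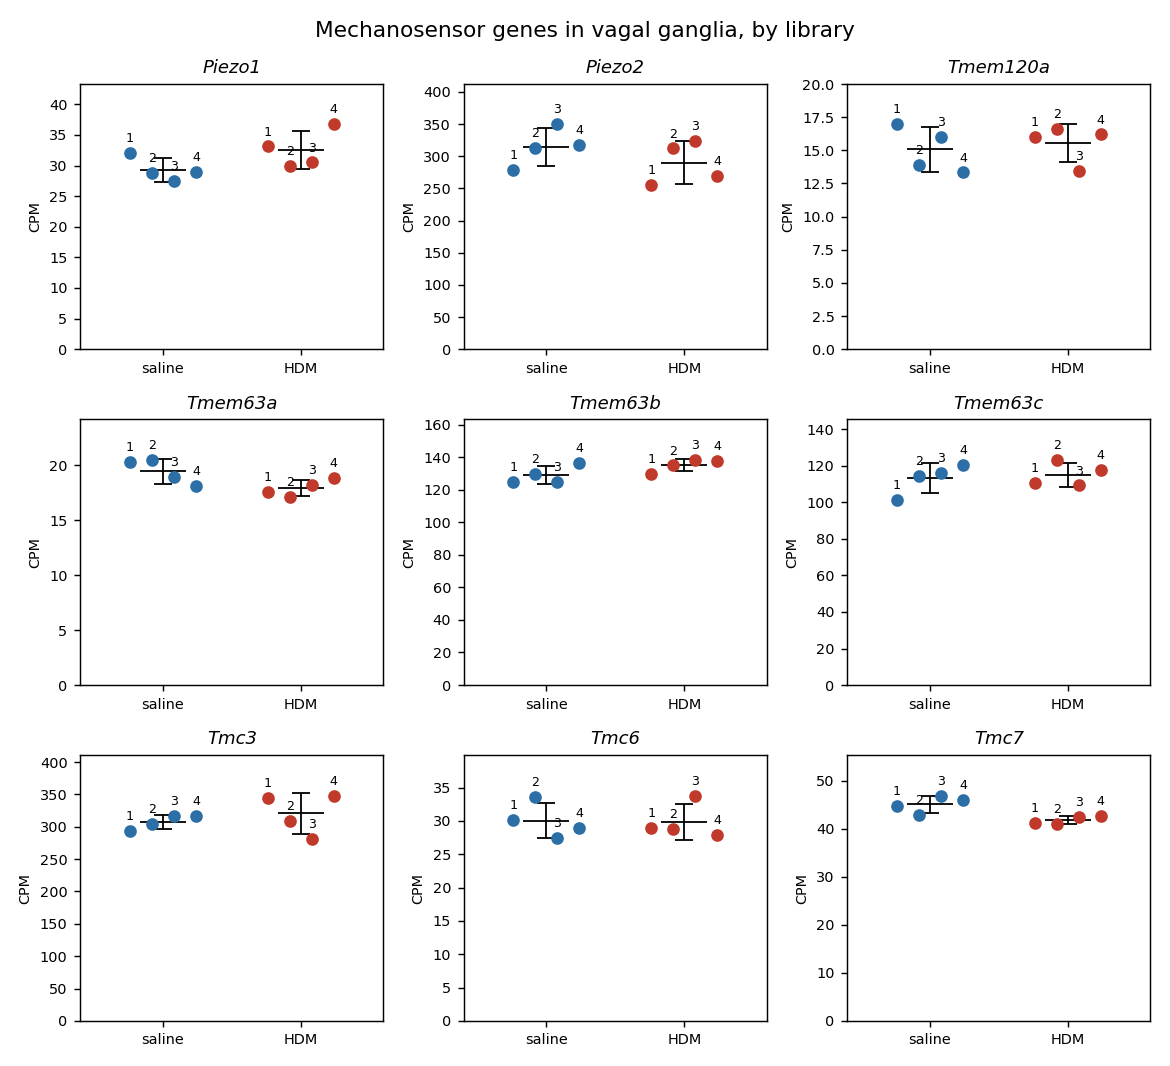
Level of the 9 tested genes in every library (CPM, linear axes from 0, different for each gene), with the replicate number beside each point and bars for the group mean and SD of 4 libraries. The groups overlap in 8 genes and are separated by a narrow gap in Tmc7.

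Piezo2 (ENSMUSG00000041482, GRCm38 chromosome 18, 63010213 to 63387183, minus strand) had 256, 312, 324 and 269 CPM in HDM replicates 1 to 4 and 278, 313, 350 and 317 CPM in saline replicates 1 to 4. CPM are counts divided by the TMM-scaled library total, on the customary scale of that unit. HDM 1, HDM 4 and saline 1 were low and saline 3 was high, and the groups overlapped. The means were 290 ± 32.8 CPM and 315 ± 29.3 CPM (SD, n = 4 each), a log2 fold change of −0.12 (SE 0.080, 95% interval −0.29 to 0.054, edgeR adjusted p = 0.464). HDM was lower in 4 of 4 batches, as in 12.8% of all tested genes. With the batch as a block the SE was 0.042 and the edgeR adjusted p 0.144 (unadjusted p = 0.0178). Piezo2 was read from 6109 to 10232 counts, for which counting error alone is 1.09%, while the coefficient of variation was 11.3% in HDM and 9.30% in saline, the widest relative spread of the tested members in HDM.

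The Piezo2 level followed the summed level of markers of jugular neurons over the 8 libraries. The vagal ganglion of the mouse joins a nodose part, derived from placodes, and a jugular part, derived from the neural crest, and 5 genes were listed as markers of the latter: Prdm12, Tlx3, Mrgprd, Runx1 and Mrgpra3. Their sum was 271, 324, 347 and 290 CPM in HDM replicates 1 to 4 and 304, 346, 355 and 340.1 CPM in saline replicates 1 to 4. The 3 libraries lowest in Piezo2, HDM 1, HDM 4 and saline 1, were the 3 lowest in this sum, and saline 3 was the highest in both. Pearson's r was 0.966 (n = 8, exact permutation test of the pairings, 2-sided, p = 0.000124, adjusted p = 0.00322 over 26 relations of Piezo1 and Piezo2 with marker lists) and Spearman's rho 0.976 (exact permutation p = 0.000397, adjusted p = 0.0103). Without HDM 1 and HDM 4, the libraries farthest from the median of the sum, r was 0.908. With the sum of 17 vagal and somatic mechanoreceptor neuron markers, Piezo2 had r = 0.378 (n = 8, exact permutation p = 0.362, adjusted p = 0.665, rho = 0.286, exact permutation p = 0.501, adjusted p = 0.723). The correlation of deviations from the group means was 0.665 there. These r values were taken on log2 levels.

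The relation of Piezo2 with the jugular sum was examined after the levels had been seen, and the adjusted p does not account for that choice. Between HDM and saline, Piezo2 and the jugular sum moved the same way in 4 of 4 batches, and the correlation of their deviations from the group means was 0.962. A batch holds 2 libraries, too few for a value of its own. The marker genes did not all move alike. Runx1, Mrgprd and Prdm12 had r of 0.940, 0.928 and 0.823 with Piezo2 and Mrgpra3 0.783, but Tlx3 had −0.737. Of the 5 jugular markers 0 passed the edgeR test between HDM and saline, beside 1.38% of all tested genes. At an unadjusted p under 0.05 there were 3, beside 18.1% of all tested genes. With the block, beside 4.05%, Tlx3 was called higher (log2 fold change 0.31, edgeR adjusted p = 0.0211) and Mrgprd lower (−0.30, edgeR adjusted p = 0.00904), and with block and GC offset, beside 0.153%, Mrgprd alone (−0.32, edgeR adjusted p = 0.0305). Leaving out any 1 of the 5 markers gave r between 0.927 and 0.977. The sum of 6 nodose markers, led by P2rx2 and Cckar, was highest in HDM 4 and HDM 1, at 771 and 747 CPM, against 557 to 643 CPM in the other 6 libraries. Of the 6, edgeR called 0, beside 1.38% of all tested genes, with 4 at an unadjusted p under 0.05, beside 18.1%. With the block it called 4 higher in HDM, beside 531 of the 17618 tested genes called higher and 4.05% called in either direction. The r of the nodose sum with Piezo2 was −0.753 (n = 8, exact permutation p = 0.0354, adjusted p = 0.230, rho = −0.857, exact permutation p = 0.0107, adjusted p = 0.133) and −0.177 without HDM 1 and HDM 4, so it rests on those libraries. In pooled tissue fewer cells of a type and less RNA per cell cannot be told apart, and the part of the makeup of the ganglia in the Piezo2 value was not tested.

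**Figure D3:**
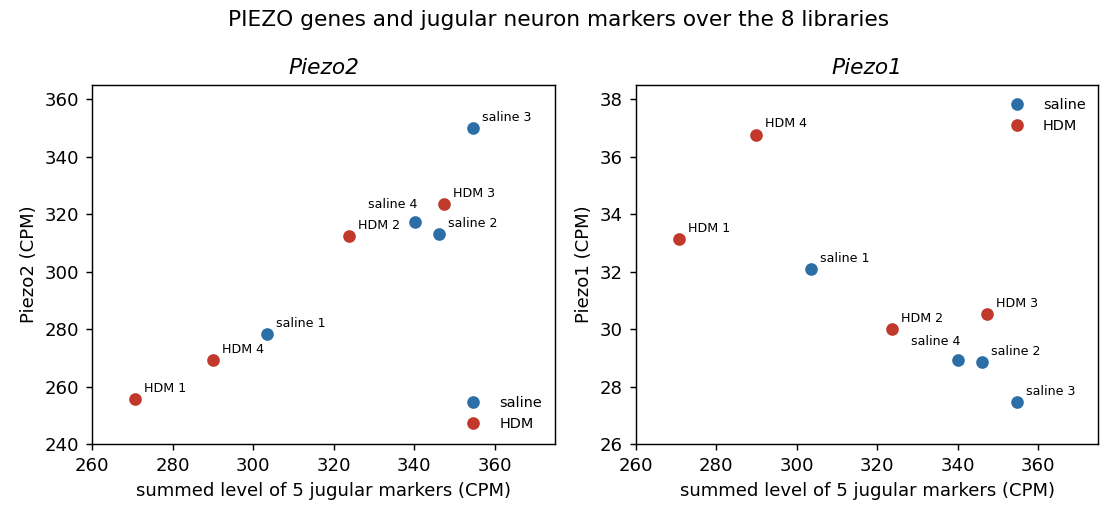
Level of Piezo2 (left) and Piezo1 (right) in CPM against the summed CPM of 5 jugular neuron markers, with 1 labelled point per library and axes that do not start at 0. Piezo2 runs from 256 CPM at the lowest sum, in HDM 1, to 350 CPM at the highest, in saline 3, and Piezo1 runs the other way.

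The genes whose log2 CPM was most like that of Piezo2 among 10936 other genes above a mean log2 CPM of 3 were Tmem200a, Homer2 and Cntn4, with Pearson's r of 0.983, 0.979 and 0.978 over the 8 libraries. They were picked as the highest of many, so the values describe these libraries only. Homer2 encodes a scaffold protein of the postsynaptic density and Cntn4 a contactin, a neuronal adhesion molecule. Homer2 ran from 42.7 to 64.9 CPM and did not differ between the groups beyond the spread (log2 fold change −0.16, edgeR adjusted p = 0.427).

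Piezo1 (ENSMUSG00000014444, chromosome 8, 122481698 to 122551329, minus strand) had the largest log2 fold change of the 9 and the opposite sign. It had 33.1, 30.002, 30.5 and 36.8 CPM in HDM replicates 1 to 4 and 32.1, 28.8, 27.5 and 28.9 CPM in saline replicates 1 to 4. HDM 4 stood highest, and saline 1 lay above 2 of the HDM libraries. The log2 fold change was 0.15 (SE 0.072, 95% interval −0.0017 to 0.31, edgeR adjusted p = 0.280), with HDM higher in 4 of 4 batches, as in 15.6% of all tested genes. Without HDM 4 the value was 0.090 (edgeR adjusted p = 0.590).

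The Piezo1 value moved with base composition. The longest Piezo1 transcript has 59.0% GC, the highest of the members, and over all tested genes the median log2 fold change ran from −0.081 in the 4401 genes of lowest transcript GC content to 0.096 in the 4401 of highest. After an offset for GC content, Piezo1 had 0.034 (SE 0.064, edgeR adjusted p = 0.878). Exons of Piezo1 share 24.6% of their bases with Ctu2, a gene on the opposite strand with 10.3 ± 0.505 CPM in HDM libraries and 8.34 ± 1.23 CPM in saline ones (log2 fold change 0.30, edgeR adjusted p = 0.163). The strand setting of the counting is not given, and the effect of the shared bases on the level per length of Piezo1 was not tested.

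PIEZO1 is known from vessels and red blood cells, and markers of both were listed. The summed level of 11 endothelial markers, led by Flt1 and Pecam1, was 170 to 187 CPM in HDM and 155 to 215 CPM in saline. Of the 11, 0 passed the test, beside 1.38% of all tested genes. The sum of 5 red blood cell markers, led by Hbb-bs and Hba-a1, was 45.6 to 77.7 CPM in HDM, 73.0 to 76.2 CPM in 3 saline libraries and 246 CPM in saline 1, where Piezo1 was the highest of the saline libraries. Pearson's r of Piezo1 with the red blood cell sum was −0.051 (n = 8, exact permutation p = 0.889, adjusted p = 0.950, rho = 0.119, exact permutation p = 0.793, adjusted p = 0.840, r without HDM 3 and saline 1 −0.742). With the endothelial sum r was 0.575 (n = 8, exact permutation p = 0.137, adjusted p = 0.444, rho = 0.738, exact permutation p = 0.0458, adjusted p = 0.238, r without saline 1 and saline 3 0.599). With the jugular sum Piezo1 had r = −0.839 (n = 8, exact permutation p = 0.00809, adjusted p = 0.105, rho = −0.833, exact permutation p = 0.0154, adjusted p = 0.133), and −0.823 without HDM 1 and HDM 4. With the nodose sum it had r = 0.766 (n = 8, exact permutation p = 0.0255, adjusted p = 0.221, rho = 0.738, exact permutation p = 0.0458, adjusted p = 0.238), and 0.060 without HDM 1 and HDM 4, so that relation rests on those libraries. The part of these cells in the Piezo1 value was not tested.

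The 2 PIEZO genes ran against each other over the libraries. Among the 36 pairs of tested members theirs had the strongest correlation (r = −0.865, n = 8, exact permutation p = 0.00471, adjusted p = 0.170 over 36 pairs, rho = −0.810, exact permutation p = 0.0218, adjusted p = 0.392), and it was −0.884 without HDM 4 and saline 3. It does not pass the correction. The ratio of Piezo2 to Piezo1 counts, in which the scaling of the library cancels, was 7.71, 10.4, 10.6 and 7.32 in HDM replicates 1 to 4 and 8.67, 10.85, 12.7 and 10.96 in saline replicates 1 to 4. HDM was lower in 4 of 4 batches, but the groups overlapped. The log2 ratio differed by −0.27, from 3.15 ± 0.281 in HDM and 3.42 ± 0.229 in saline (SD, n = 4 each; exact permutation test over 70 assignments, 2-sided, p = 0.143, adjusted p = 0.286 over 6 ratios, where the smallest p possible is 0.0286).

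The TMEM63 genes differed little. Tmem63b (ENSMUSG00000036026, chromosome 17, 45660171 to 45686905, minus strand), known from alveolar cells that sense lung inflation, had 130, 135, 138 and 138 CPM in HDM replicates 1 to 4 and 125, 130, 125 and 136 CPM in saline replicates 1 to 4. HDM was higher in 4 of 4 batches while the groups overlapped, because saline 4 stood above the other saline libraries. The log2 fold change was 0.069 (SE 0.043, 95% interval −0.024 to 0.16, edgeR adjusted p = 0.427) and −0.030 after the GC offset. Its biological coefficient of variation was 4.74%, the lowest of the tested members, beside a median of 8.2% over all tested genes.

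Tmem63c (ENSMUSG00000034145, chromosome 12, 87021340 to 87090043, plus strand), known from kidney podocytes, had 110, 123, 109 and 118 CPM in HDM replicates 1 to 4 and 102, 115, 116 and 121 CPM in saline replicates 1 to 4. The groups covered overlapping ranges (log2 fold change 0.025, SE 0.057, 95% interval −0.099 to 0.15, edgeR adjusted p = 0.860), and the sign changed after the GC offset.

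Tmem63a (ENSMUSG00000026519, chromosome 1, 180942344 to 180975112, plus strand), known from myelinating glia of the brain, had 17.6, 17.1, 18.2 and 18.8 CPM in HDM replicates 1 to 4 and 20.3, 20.5, 18.9 and 18.1 CPM in saline replicates 1 to 4. Saline 1 and saline 2 stood apart from the other 6 libraries, and saline 4 lay within the HDM range. The log2 fold change was −0.12 (SE 0.067, 95% interval −0.26 to 0.028, edgeR adjusted p = 0.381), and −0.19 (SE 0.060, edgeR adjusted p = 0.260) after the GC offset, which moved it by over 1.5 times without a call. The log2 ratio of Tmem63a to Tmem63b was −2.91 ± 0.049 in HDM and −2.73 ± 0.130 in saline (SD, n = 4 each; exact permutation test, 2-sided, p = 0.0857, adjusted p = 0.286 over 6 ratios), and that of Tmem63c to Tmem63b differed by −0.044 (exact permutation p = 0.514, n = 4 each, adjusted p = 0.514).

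Some markers of myelinating Schwann cells fell beside Tmem63a. Of the 12 listed, Pmp22 among them, edgeR called 0 higher and 3 lower, beside 0.159% of all tested genes called lower, with a median log2 fold change of −0.21. With the block 0 were called higher and 4 lower, beside 182 of the 17618 tested genes called lower and 4.05% called in either direction. With the GC offset, alone or with the block, 0 were called, but these fits called only 0 and 0.153% of all tested genes. The median log2 fold change of the markers was −0.22 in both. In each, 10 markers had an unadjusted p under 0.05, beside 11.7% of all tested genes with the offset alone and 2466 of 17618 with the block added. The group sums overlapped, with 3255 to 3585 CPM in HDM and 3458 to 4111 CPM in saline. The sum was highest in saline 1 and saline 2, the libraries highest in Tmem63a, but nearly as high in saline 4 (3828 CPM beside 3833 CPM in saline 2), where Tmem63a was within the HDM range. The part of these cells in the Tmem63a value was not tested.

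Among the TMC genes, Tmc7 (ENSMUSG00000042246, chromosome 7, 118535841 to 118584736, minus strand) was the member with separated groups. It had 41.3, 41.0, 42.5 and 42.7 CPM in HDM replicates 1 to 4 and 44.7, 42.9, 46.9 and 46.1 CPM in saline replicates 1 to 4. The highest HDM library, at 42.7 CPM, lay just below the lowest saline library, at 42.9 CPM, a gap smaller than the spread within saline. Groups were separated in 1 of 9 members, beside 10.6% of all tested genes, or 4.39% for groups separated with HDM lower. The log2 fold change was −0.11 (SE 0.047, 95% interval −0.21 to −0.0081, edgeR unadjusted p = 0.0361, adjusted p = 0.241), lower in 4 of 4 batches, and −0.068 after the GC offset. At 46.6% GC the longest transcript of Tmc7 has the lowest GC content of the members.

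Tmc3 (ENSMUSG00000038540, chromosome 7, 83584927 to 83625614, plus strand) had 345, 310, 281 and 348 CPM in HDM replicates 1 to 4 and 293, 305, 316 and 316 CPM in saline replicates 1 to 4. HDM 1 and HDM 4 stood above all saline libraries and HDM 3 below them. The mean was 321 ± 31.8 CPM in HDM libraries and 308 ± 11.002 CPM in saline ones (log2 fold change 0.060, SE 0.063, 95% interval −0.075 to 0.20, edgeR adjusted p = 0.654). The relative spread was 9.92% in HDM and 3.58% in saline, beside 1.08% from counting, and the difference in spread was not tested. The value depended on single libraries, with 0.019 without HDM 4, 0.022 without HDM 1, 0.032 without saline 1 and 0.12 without HDM 3, and it was 0.0012 without batch 1 and 0.13 without batch 3, with no call in any of these (edgeR adjusted p from 0.275 to 0.996). Exons of Tmc3 share 43.9% of their bases with Gm16638, an antisense gene with 24.7 ± 1.28 CPM in HDM libraries and 24.3 ± 2.06 CPM in saline. The effect of these shared bases on the level per length of Tmc3 was not tested either. The log2 ratio of Tmc3 to Tmc7 differed by 0.16 (exact permutation p = 0.114, n = 4 each, adjusted p = 0.286 over 6 ratios).

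Tmc6 (ENSMUSG00000025572, chromosome 11, 117765988 to 117782198, minus strand) and its neighbour Tmc8 encode the EVER proteins, which act with CIB1 in the defence of skin against papillomaviruses and are known from lymphocytes. Tmc6 had 29.0, 28.8, 33.8 and 27.9 CPM in HDM replicates 1 to 4 and 30.1, 33.6, 27.5 and 29.0 CPM in saline replicates 1 to 4, with HDM 3 and saline 2 high. The log2 fold change was −0.010 (SE 0.075, 95% interval −0.17 to 0.15, edgeR adjusted p = 0.959), and −0.12 (edgeR adjusted p = 0.518) after the GC offset. Tmc8 was at 0.864 ± 0.105 CPM in HDM and 0.852 ± 0.222 CPM in saline, from 17 to 29 counts. The summed level of 11 lymphocyte markers, led by Lck and Cd79a, was 3.85 to 4.49 CPM in HDM and 3.31 to 5.34 CPM in saline, and 9 of the 11 had too few counts to be tested. The log2 ratio of Tmc6 to Tmc7 differed by 0.098 (exact permutation p = 0.429, n = 4 each, adjusted p = 0.514).

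Of the proteins described as acting on PIEZO2, Tmem120a (ENSMUSG00000039886, chromosome 5, 135735485 to 135744448, minus strand) had 16.0, 16.6, 13.5 and 16.2 CPM in HDM replicates 1 to 4 and 17.0, 13.9, 16.0 and 13.3 CPM in saline replicates 1 to 4. HDM 3, saline 2 and saline 4 lay below the rest, 2 in one group and 1 in the other (log2 fold change 0.050, SE 0.094, 95% interval −0.15 to 0.25, edgeR adjusted p = 0.819, and −0.061 after the GC offset). With 339 to 468 counts per library it had the widest interval of the tested members. Its paralog Tmem120b had 20.9 TPM on average, with group means of 15.8 CPM for HDM and 16.5 CPM for saline (log2 fold change −0.058, edgeR adjusted p = 0.691).

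Stoml3 (ENSMUSG00000027744, chromosome 3, 53488653 to 53508502, plus strand) was at the detection limit. It had 1, 0, 0 and 0 counts in HDM replicates 1 to 4 and 0, 2, 2 and 1 counts in saline replicates 1 to 4. A count of 0 allows up to 3 counts, or 0.0959 to 0.125 CPM depending on the library, for counting error only. All 8 libraries lie below that limit, so no fold change is given, and its planned ratio to Piezo2 rests on 6 counts in all (exact permutation p = 0.286, n = 4 each, adjusted p = 0.429). The other stomatin family genes were expressed, with 103 TPM for Stoml1, 72.2 TPM for Stom and 47.2 TPM for Stoml2.

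**Figure D4:**
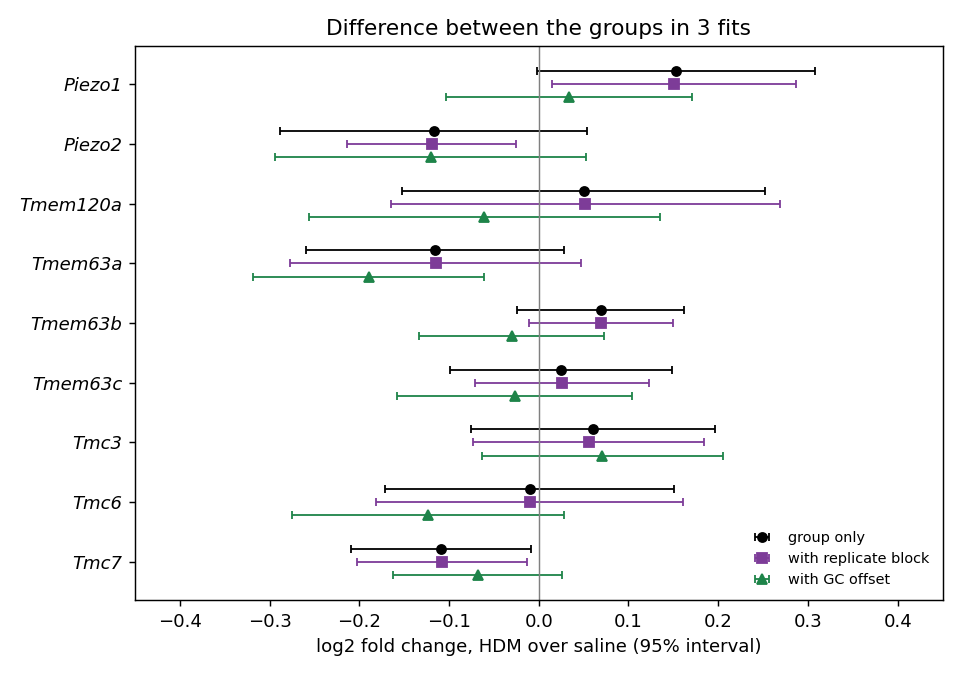
Log2 fold change of HDM over saline with its 95% interval for the 9 tested genes in 3 edgeR fits, with group as the only term (circles), with the batch as a block (squares) and with an offset for GC content (triangles). The offset moves Piezo1 from 0.15 to 0.034 and Tmem63a from −0.12 to −0.19, and Tmem120a, Tmem63b and Tmem63c change sign.

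The wider set of mechanosensing genes gave a similar picture. The 40 further genes were the rest of the TMC family, partners of the TMC complex, the stomatin family, regulators of PIEZO and other stretch-sensing proteins. Of these, 36 were tested and 0 passed in either direction (edgeR, adjusted p under 0.05), beside 1.38% of all tested genes. At an unadjusted p under 0.05 there were 6, where the background was 18.1% of genes. The median log2 fold change of the 36 was 0.0046. With the batch as a block 1 passed, beside 4.05% of all tested genes: Tmem150c, which encodes tentonin 3, a protein linked to slowly adapting mechanical currents. Tmem150c had 111 ± 5.46 CPM in HDM libraries and 98.7 ± 3.58 CPM in saline libraries (log2 fold change 0.17, SE 0.047, edgeR adjusted p = 0.0872, which became 0.0332 when blocked by batch and 0.123 when the GC offset was added to the block), higher in 4 of 4 batches. By level per length the set was led by Anxa6 at 649 TPM, an annexin reported to regulate mechanosensitive currents, Atp2a2 at 240 TPM, the calcium pump SERCA2, and Asic3 at 128 TPM, an acid-sensing channel, none of which passed.

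The tissue label was checked against markers fixed as lists. Pan-neuronal markers, led by Nefl and Tubb3, summed to 9995 to 10768 CPM in HDM and 9459 to 9749 CPM in saline, so the groups did not overlap in this sum. The part of this difference in the values of the members was not tested. Of the 9 markers 1 was called higher, Prph (beside 1.23% of all tested genes). With the block 4 were called higher, beside 531 of the 17618 tested genes called higher and 4.05% called in either direction. With the GC offset 0 were called, as over all tested genes, and 2 had an unadjusted p under 0.05, beside 11.7%. Markers of mechanoreceptor neurons, led by Ret and Nefh, summed to 2562 to 2884 CPM. Of the 16 tested 0 were called (beside 1.38% of all tested genes), or 1 higher and 1 lower with the block (beside 4.05% in either direction). Satellite glia markers, led by Apoe and Glul, summed to 2553 to 3192 CPM, fibroblast markers, led by Dcn and Col1a2, to 737 to 1039 CPM, smooth muscle and pericyte markers, led by Rgs5 and Pdgfrb, to 113 to 141 CPM, and macrophage markers, led by Lyz2 and Csf1r, to 84.0 to 149 CPM. In each of these lists 0 were called, beside 1.38% of all tested genes. With the block 1 was called higher among the satellite glia markers and 1 lower among the fibroblast markers, beside 4.05% in either direction. All 7 genes listed as sympathetic neuron markers, led by Gap43 and Th, had a positive log2 fold change, with a median of 0.78. In edgeR 0 of them were called, beside 1.38% of all tested genes, with 5 at an unadjusted p under 0.05, beside 18.1%. With the block 1 was called higher, Gap43, beside 531 of the 17618 tested genes called higher and 4.05% called in either direction. All 7 had an unadjusted p under 0.05 with the block, beside 20.9% of all tested genes. Their sum was 689 to 773 CPM in HDM 1 to 3, 1286 CPM in HDM 4 and 519 to 779 CPM in saline, and Piezo1 and Tmc3 were also highest in HDM 4. The part of sympathetic neurons in the Piezo1 and Tmc3 values was not tested, nor whether Gap43 was read from sympathetic or other neurons. No marker was at 0 in all libraries.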

How the data were processed

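RNA was measured in 8 libraries, 4 HDM and 4 saline pools of mouse vagal ganglia. The deposited table holds counts, whole numbers per gene, made with featureCounts on GRCm38 (mm10), per the submitters' processing notes, from 1 merged alignment file per library, per the file headers. For the aligner, tool versions and strand setting, the state is: not given in the sources used here. Of 55335 genes, 55154 were in GENCODE M21 and 54899 had the same span there. In 140 genes whose exons lie wholly inside exons of an opposite-strand gene with at least 5000 counts, 114 had counts, at a median of 0.0129 of the host's counts per base.

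Low-count genes were removed by filterByExpr (edgeR 4.0.16 in R 4.3.3). Libraries were scaled by TMM factors and compared with the quasi-likelihood F-test (2-sided, group only), adjusted by Benjamini-Hochberg over 17618 genes. SE and intervals come from that fit. TPM use the table's gene length. Ratios and correlations use exact permutation over libraries, with 0.5 added to each count in ratios. Correlations were taken on log2 levels. Transcript GC (longest transcript, known for 99.9% of tested genes) entered an offset as a natural spline with 4 degrees of freedom per library, fitted above a mean log2 CPM of 3. DESeq2 1.42.0 and limma 3.58.1 (voom) were alternatives, beside other scalings, filters and a length offset. The fits were also run on simulated counts, with an outcome that is not given here.

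The batch label pairs the libraries. Deviations from the group means had correlations of −0.051 to 0.033 between libraries of 1 batch, so the pairing rests on the label. The members and lists were chosen with earlier results of these data known. Named were all members, related genes that passed in either fit or led by TPM, other TMC genes and Tmem120b, the 3 genes most like Piezo2, the 2 highest genes of each marker list (1 of them is not reported here), and genes overlapping a member. Stom, Stoml2, Tmie, Cib2, Mdfi, Prph and single jugular markers were also given after their values were seen. Start windows are from RefSeq (GRCm38.p6) and were matched for 9 members.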

Additional observations from a re-analysis of the deposited data

Results flagged for a closer look

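One result stood out by the position of a single library. In HDM the lowest log2 CPM of Tmem120a, in HDM 3 (13.5 CPM against 16.0 to 16.6 CPM in the other HDM libraries), lay apart by 0.832 of the group's range, just above Dixon's critical value for 4 samples. It was 1 of 28 groups of 4 checked, over the 9 tested members and 5 ratios, and chance flags about 1 in 20 such groups. Without HDM 3 the log2 fold change of Tmem120a was 0.115.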

How the results depend on the processing

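Of the 9 tested members, 0 were called in any of the 23 alternative fits or at an adjusted p under 0.10. With the replicate block the log2 fold changes of Piezo2, Piezo1 and Tmc7 were −0.12, 0.15 and −0.11 (edgeR adjusted p = 0.144, 0.196 and 0.186), and the block changed the call of no member. The sign turned with the GC offset for Tmem63b (−0.0302, and −0.0288 with the block), Tmem63c (−0.0270 and −0.0248) and Tmem120a (−0.0606 and −0.0583). Leaving out single libraries, Tmem63c ran from −0.0299 to 0.0528, Tmc6 from −0.0736 to 0.0464 and Tmem120a from −0.00709 to 0.115. Leaving out batches, the sign also turned for Tmem63c without batch 1 or 2 (−0.00439, −0.00652), Tmc6 without batch 1, 2 or 4 (0.00361, 0.0638, 0.00127), Tmem120a without batch 2 or 4 (−0.0193, −0.0267), and the log2 ratios of Tmem63c to Tmem63b (0.0214) and Tmc6 to Tmc7 (−0.0148) without batch 3. Over both kinds, these ran from −0.0299 to 0.0615, −0.115 to 0.0638, −0.0267 to 0.144, −0.0802 to 0.0214 and −0.0148 to 0.185, while Piezo2 stayed between −0.178 and −0.0624 and Piezo1 between 0.0805 and 0.192. Over all genes 244 were called, 722 without a filter, 820 in DESeq2, 713 with the replicate block, 532 with block and length offset, 27 with block and GC offset, 709 at an adjusted p under 0.10, and 0 with the GC offset (2054 at an unadjusted p under 0.05). When libraries were left out the count ran from 0 (without HDM 1, HDM 2 or saline 3, with 2449, 2452 and 2373 at an unadjusted p under 0.05) to 376 (without HDM 3), with 60 without HDM 4 and 97 without saline 2, and without batches 1 to 4 it was 5, 0, 24 and 4 (edgeR). With the longest transcript as length, Tmem63b, Tmem63c, Tmc6, Tmem120a and Tmc7 took places 2, 3, 5, 6 and 7 of the per-length order. Leaving out single libraries, r of Piezo2 with the jugular sum ran from 0.949 to 0.979. The cause of these shifts was not tested. Depth limits Stoml3, Tmc1 and Tmc2.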

Other observations

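Cib2 and Tmie, partners of the TMC channel complex, were higher in HDM in 4 of 4 batches, as in 15.6% of all tested genes, without passing. They were the 2 of 7 tested partners at an unadjusted p under 0.05, beside 18.1% of all tested genes. Of the 7 partners 4 had a positive log2 fold change, and the median was 0.020, so the partners did not rise as a set. Cib2, which encodes a calcium-binding protein needed for hair cell transduction, averaged 28.7 CPM in HDM libraries and 25.1 CPM in saline ones (log2 fold change 0.19, SE 0.066, edgeR unadjusted p = 0.0126, adjusted p = 0.156, and 0.13 after the GC offset). Tmie had 7.36 and 5.68 CPM (log2 fold change 0.37, SE 0.14, edgeR unadjusted p = 0.0192, adjusted p = 0.186). Mdfi, whose product belongs to a family of PIEZO auxiliary proteins, had 0.184 CPM in HDM libraries against 0.589 CPM in saline ones, with 2 to 24 counts per library (log2 fold change −1.65, SE 0.49, edgeR unadjusted p = 0.00477, adjusted p = 0.106). These genes were picked after their values were seen.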
